A study of Mus musculus with 20 samples.

Results

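Lymph nodes draw lymphocytes from the blood and keep them in zones, and 9 mouse genes of that machinery were followed here: Glycam1, Madcam1, Fut7, Chst2, Cxcl13, Cxcr5, Ccr7, Ltb and Ch25h. They were taken by symbol from the annotation of the array, which gave 11 of its 12422 probe sets without controls, since Madcam1 and Chst2 have 2 each. The genes had been picked with a comparison of these arrays in view, namely the adipose arrays titled Glucose against those titled Con, and their values in it are therefore a description without a test. The expression arrays cover 20 mouse samples, filed under a title on sleep apnea and glucose metabolism. Subcutaneous adipose tissue is on 8 arrays, with 2 arrays in each of 4 groups by title: Glucose with hypoxia, Glucose without hypoxia, Con with hypoxia and Con without hypoxia. The adipose labels name mice aged 12 weeks of 2 kinds, C57BL-6J and, with a mutation of the leptin gene, C57BL-6J-Lep, but they tie no array to one of them and do not say what Con and Glucose stand for. Intermittent hypoxia took the oxygen in the air down to 5% and back, from 20.9%, in phases of 30 seconds, for 16 hours a day on 5 days. Brain, heart, lung and skeletal muscle of C57BL-6J mice aged 20 weeks are on the other 12 arrays, 1 for each tissue after sleep fragmentation, after hypoxia and in controls. No label says that arrays of a group came from separate animals, so p-values here measure the spread between arrays only.

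High endothelial venules are the vessels through which naive lymphocytes enter a lymph node. L-selectin on the lymphocyte binds sulfated and fucosylated sugars carried by proteins such as the products of Glycam1 and Madcam1, and Fut7 and Chst2 encode enzymes that build those sugars. Inside the node, stromal cells make the chemokine Cxcl13 for follicles, where cells with the receptor Cxcr5 gather, while Ccr7 guides cells to the T cell zone. Lymphocytes in turn keep this stroma in shape through surface lymphotoxin, of which Ltb encodes the membrane-anchored chain, and the receptor of this ligand signals through the noncanonical NF-kappaB pathway. Ch25h makes 25-hydroxycholesterol, the first step to an oxysterol that steers activated B cells.

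The genes lie on 8 mouse chromosomes in the RefSeq annotation of GRCm38.p6: Fut7 on 2, Cxcl13 on 5, Cxcr5 and Chst2 on 9, Madcam1 on 10, Ccr7 on 11, Glycam1 on 15, Ltb on 17 and Ch25h on 19. RefSeq promoter windows, each running from 250 bases before to 50 after a gene's start, matched 7 of the 9 genes in 8 windows, with 2 for Fut7 and none for Cxcr5 and Ccr7. The 5 windows below belong to the genes whose adipose and lung values the results turn on, and to the 2 pairs that share letters known from NF-kappaB sites. In these sequences, written 5′ to 3′ on the strand of the gene, capitals mark a match to one of 2 motifs. Glycam1 is at chr15:103565032-103565331 on the minus strand, Ltb at chr17:35194257-35194556 on the plus strand, Madcam1 at chr10:79664309-79664608 on the plus strand, Cxcl13 at chr5:95956689-95956988 on the plus strand and Ch25h at chr19:34475099-34475398 on the minus strand, all on GRCm38.p6.
Glycam1: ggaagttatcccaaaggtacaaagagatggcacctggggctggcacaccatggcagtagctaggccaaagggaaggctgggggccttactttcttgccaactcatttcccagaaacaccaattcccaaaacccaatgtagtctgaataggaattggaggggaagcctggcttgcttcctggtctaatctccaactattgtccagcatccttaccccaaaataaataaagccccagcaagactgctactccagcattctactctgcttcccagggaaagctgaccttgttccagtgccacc
Ltb: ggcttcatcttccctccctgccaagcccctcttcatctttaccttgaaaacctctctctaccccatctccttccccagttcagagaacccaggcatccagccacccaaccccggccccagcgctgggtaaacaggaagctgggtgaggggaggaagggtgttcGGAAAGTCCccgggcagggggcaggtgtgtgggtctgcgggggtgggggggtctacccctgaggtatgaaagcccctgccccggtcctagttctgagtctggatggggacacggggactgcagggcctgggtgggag
Madcam1: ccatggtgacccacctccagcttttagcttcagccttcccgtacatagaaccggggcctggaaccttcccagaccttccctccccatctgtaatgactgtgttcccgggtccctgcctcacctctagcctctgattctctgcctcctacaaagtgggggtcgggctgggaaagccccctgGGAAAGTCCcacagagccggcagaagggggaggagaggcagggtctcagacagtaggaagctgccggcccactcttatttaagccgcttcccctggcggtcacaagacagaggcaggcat
Cxcl13: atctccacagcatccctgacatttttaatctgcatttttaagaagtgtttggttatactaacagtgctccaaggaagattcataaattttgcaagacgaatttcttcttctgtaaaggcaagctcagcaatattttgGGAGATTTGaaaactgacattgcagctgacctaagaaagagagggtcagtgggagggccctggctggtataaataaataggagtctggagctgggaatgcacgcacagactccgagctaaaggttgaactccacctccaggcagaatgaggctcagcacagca
Ch25h: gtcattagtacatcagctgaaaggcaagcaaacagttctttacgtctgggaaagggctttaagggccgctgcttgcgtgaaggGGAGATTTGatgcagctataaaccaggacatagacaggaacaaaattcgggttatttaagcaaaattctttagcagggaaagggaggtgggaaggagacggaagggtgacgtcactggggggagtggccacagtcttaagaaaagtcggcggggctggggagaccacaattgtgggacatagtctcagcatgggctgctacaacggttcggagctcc

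The first motif, GGANNNTCC, holds the outer letters of an NF-kappaB site and was searched on both strands. Its match GGAAAGTCC stood 87 bases before the start of Ltb and 70 bases before that of Madcam1. The second, GGAGATTTG, is the core of a site described for the noncanonical complex at the Cxcl13 promoter, and stood 113 bases before the start of Cxcl13 and 167 bases before that of Ch25h. The 2 motifs do not overlap each other in these windows. Of all 32851 windows of this length, 8.62% held the first motif and 0.253% the second, and the windows of Glycam1, Fut7 and Chst2 held neither. The motifs were chosen with these promoters in mind, and a match describes letters, not a bound site.

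Values are deposited intensities on a linear scale, which fell to 0 or below in 17.5% to 21.2% of the probe sets on each adipose array and on no array of the other tissues. Before log2 was taken, adipose values under 97.7, the percentile 20 of all positive values, were set to that value, which is called the floor and equals a log2 level of 6.61. Of the 44 values of the 11 probe sets on Glucose arrays, 23 lay under the floor and 12 at or below 0, and of the 44 on Con arrays, 6 and 4. Where all arrays of a side were at the floor, a fold is a lower bound at that floor. Arrays at the floor share 1 value, so standard errors and p-values of such genes leave out the spread between those arrays. The trimmed mean intensity was close to 800 on 19 arrays and 2671 on the brain hypoxia array. Adipocyte markers had a median log2 level of 12.8 to 13.9 on the Glucose arrays and of 13.3 to 14.0 on the Con arrays. In a bulk sample, fewer cells of a type and less RNA per cell cannot be told apart.

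The 9 genes split on the adipose arrays. Glycam1, Cxcl13, Cxcr5, Ccr7 and Ltb were lower on all 4 Glucose arrays than on any of the 4 Con arrays, while Madcam1, Fut7, Chst2 and Ch25h overlapped between the sides. A single limma fit covered 7453 probe sets above a filter on low values, and its member values are a description. Of the 8 member probe sets that passed the filter, 4 were past an adjusted p of 0.05, all lower on Glucose. Of all tested, 7.58% were called and 3.54% were called lower. The filter was on the mean over all adipose arrays, and Glycam1, Ltb, Cxcl13 and Cxcr5 passed it through their Con values. All 4 Glucose arrays lay below all 4 Con arrays for 5 of the 11 probe sets, 4 of them tested, against 8.33% of all tested. Since the genes were chosen on this contrast, nothing is read from these counts.

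Glycam1, the secreted mucin-like ligand of L-selectin, had deposited intensities of -261 and -317 with hypoxia and -184 and 1.35 without it on Glucose arrays, against 1047 and 2455 with hypoxia and 646 and 2231 without it on Con arrays. No Glucose array rose above the floor and every Con array was well above it. The mean was -190 ± 139 on Glucose and 1595 ± 884 on Con (SD, n = 4 each). On the log2 scale the difference was -3.83 ± 0.45 (standard error of the fit), which makes Glycam1 at least 14.2-fold lower on Glucose.

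Ltb, the chain that anchors lymphotoxin to the cell surface, read 61.7 and -111 with hypoxia and -8.08 and -110 without it on Glucose arrays, against 1454 and 3051 with hypoxia and 2551 and 1235 without it on Con arrays. All Glucose arrays were again at the floor and none of the Con arrays was near it. The log2 difference of -4.31 ± 0.34 gives a level at least 19.8-fold lower on Glucose, and 0.134% of all tested probe sets had a difference as low or lower. Leaving out any 1 array moved it between -4.57 and -4.04.

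Cxcl13, the follicle chemokine, read 2.73 and 142 with hypoxia and 98.6 and 84.1 without it on Glucose arrays, against 885 and 2172 with hypoxia and 915 and 719 without it on Con arrays. The highest Glucose array stood just over the floor, and the lowest Con array was several times higher. The difference was -3.30 ± 0.34 log2, or 9.85-fold lower on Glucose, and its size depends on the floor, at which 2 Glucose arrays lay. It was -2.77 with values at or below 0 missing and -1.88 with the percentile 40 as floor. Its receptor Cxcr5 was much dimmer, at 49.5 and 103 with hypoxia and 124 and 42.9 without it on Glucose arrays, against 363 and 235 with hypoxia and 314 and 195 without it on Con arrays. The sides of Cxcr5 did not overlap, but its difference of -1.36 ± 0.28 log2 (2.56-fold lower on Glucose, again with 2 arrays at the floor) became -0.11 with the percentile 40 as floor and was past the threshold in none of the 8 fits that leave out 1 array, 4 of which no longer tested it.

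Ccr7, the receptor that brings lymphocytes and dendritic cells to the T cell zone, read 45.2 and 46.1 with hypoxia and -11.3 and -106 without it on Glucose arrays, against 227 and 405 with hypoxia and 224 and 107 without it on Con arrays. Every Glucose array was at the floor, and the lowest Con array, without hypoxia, was barely above it. Ccr7 was at least 2.21-fold lower on Glucose, but its mean fell under the filter and it was not tested.

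Madcam1 and Fut7 differed from Glycam1 in that their Glucose and Con arrays overlapped. For Madcam1, the mucosal addressin that also binds an integrin, probe set 102679_at read 446 and 428 with hypoxia and 634 and 358 without it on Glucose arrays, against 275 and 388 with hypoxia and 356 and 133 without it on Con arrays. Higher values on Glucose overlapped with those on Con, and the difference was 0.77 ± 0.38 log2. Its second probe set, 102680_g_at, spread from -54.1 to 763 on the Glucose arrays and from 136 to 410 on the Con arrays, a difference of 0.87 ± 0.64. Fut7, a fucosyltransferase of selectin ligands, ranged from 194 to 429 on the Glucose arrays and from 213 to 400 on the Con arrays and differed by 0.31 ± 0.30.

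Chst2, a sulfotransferase, was close to the background of the adipose arrays. Its probe set 102639_at ran from -28.8 to 64.9 on Glucose and from -2.82 to 99.7 on Con, and 97110_at from -47.1 to 211 on Glucose and from -76.3 to 106 on Con, so both were under the filter and not tested. Ch25h, the cholesterol 25-hydroxylase, averaged 184 ± 85.3 on Glucose and 186 ± 51.6 on Con (SD, n = 4 each), and its difference of -0.07 ± 0.28 changed sign with the array left out, between -0.16 and 0.17.

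**Figure D1:**
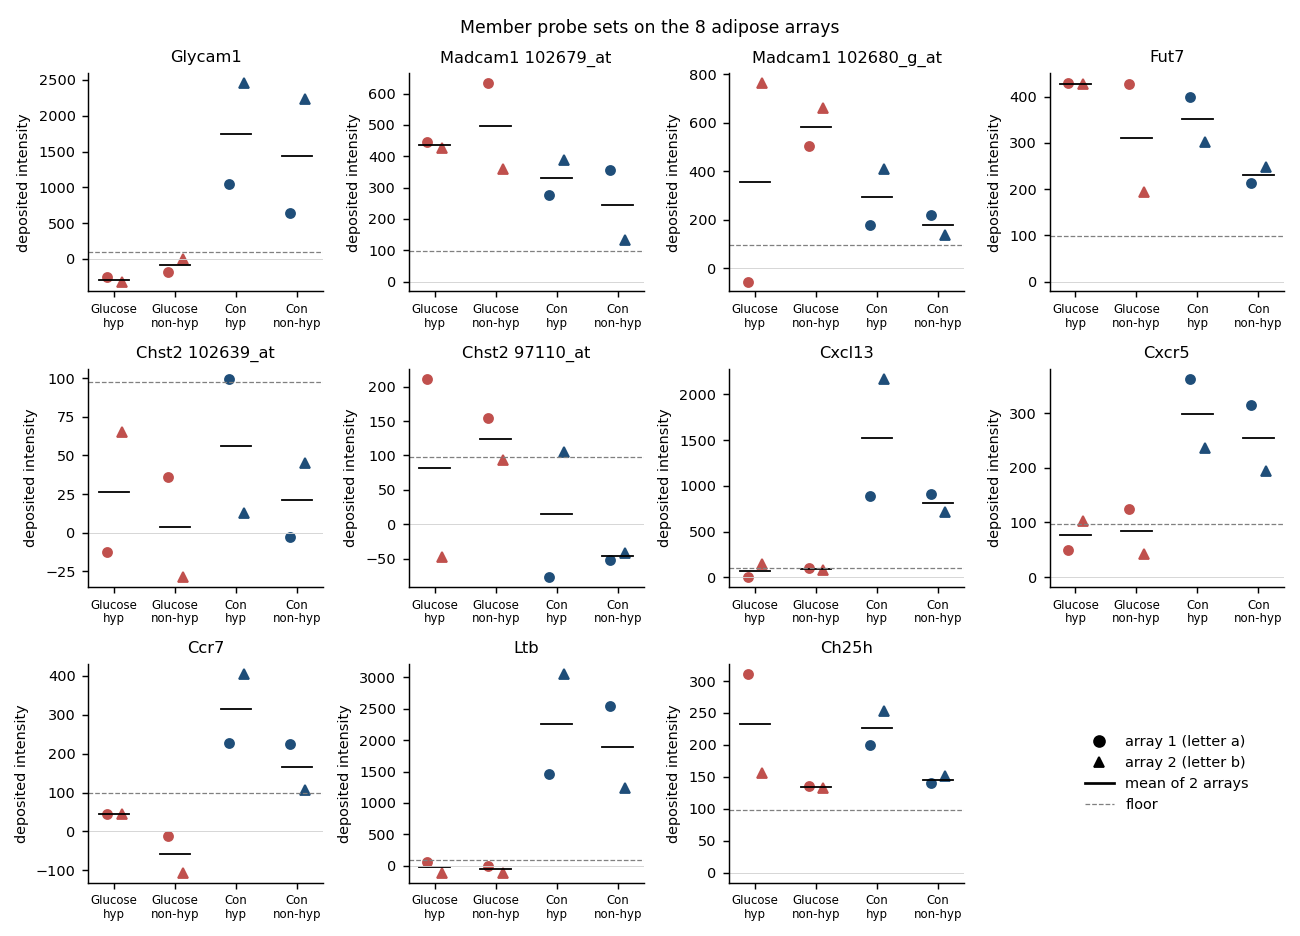
Deposited intensity (vertical axis, linear, a scale of its own in each panel) of the 11 probe sets on the 8 adipose arrays, Glucose groups left of Con groups. Points are arrays, bars the mean of 2 arrays and the dashed line the floor at 97.7. Glycam1, Cxcl13, Cxcr5, Ccr7 and Ltb separate the sides, and the other panels overlap.

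The Con arrays varied among themselves. The Con hypoxia array numbered 2 was the highest of the 4 Con arrays for 8 of the 11 probe sets, and the Con hypoxia array numbered 1 for the other 3. The highest Con array exceeded the lowest 3.80-fold for Glycam1, 3.79-fold for Ccr7, 3.02-fold for Cxcl13 and 2.47-fold for Ltb. Glycam1 was low on both Con arrays numbered 1, at 1047 and 646, whereas Ltb was low on the Con hypoxia array numbered 1 and on the Con non-hypoxia array numbered 2, so the genes did not share one order over the Con arrays. Those last 2 arrays carry the code s4 in their titles and the other Con arrays s2, a code that the labels do not explain.

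Markers of lymphocytes moved with the 5 genes. Of 12 B cell markers on the array 10 were tested, all 10 were lower on Glucose and 7 fell in limma at an adjusted p of 0.05, where 3.54% of all tested probe sets fell. Among the 7 was the B cell receptor gene Cd79a with -4.16 ± 0.27 log2. The median log2 level of the B cell list was 7.22 to 7.60 on Glucose arrays and 9.61 to 10.6 on Con arrays, and its summed intensity 8392 to 16760 on Glucose and 17247 to 33942 on Con. Of 13 T cell markers 5 were tested, 4 were lower and 3 fell (Cd8b1, Thy1 and Cd2). Between 9 and 11 T cell markers were at the floor on each Glucose array and 1 or 2 on each Con array, with sums of 841 to 2188 on Glucose and 4064 to 6497 on Con. Between 4 and 6 B cell markers were at the floor on each Glucose array and 0 or 1 on each Con array. The filter was on the mean over all adipose arrays, so markers at the floor on Glucose arrays could be tested through their Con values. Both lists were chosen with earlier results of these arrays known, so their counts in Glucose minus Con are a description. In fits without 1 array 4 to 7 B cell and 1 to 3 T cell markers fell. The arrays of a single code, s2 or s4, leave 1 array in each group, and within either most B cell calls were lost. The T cell calls were all lost within s2 but not within s4. Lymphocytes are known to express Cxcr5, Ccr7 and Ltb, and the part of lymphocyte number in the differences was not tested.

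Markers of most other cell types were not called. None of 6 tested macrophage markers, 7 endothelial markers, 8 adipocyte markers and 2 mammary gland markers passed the threshold in the same fit. The endothelial list, of the cell type that lines vessels, had a median difference of 0.15 against 0.04 for all probe sets, with 6 of 7 higher on Glucose. Skeletal muscle markers were lower in 8 of 8 cases and 2 fell, where 3.54% of all tested probe sets fell. Their median difference was -0.81 log2 against 0.04 for all probe sets, with summed intensities of 13751 to 87299 on Glucose and 37847 to 131686 on Con. Glycam1 is also a milk protein gene in the lactating mammary gland, and the milk protein genes Wap and Csn1s2a and the milk fat globule gene Btn1a1 were at the floor on all 8 adipose arrays. These were named because they were at the floor throughout. The list also holds the milk protein genes Csn1s1, Csn2, Csn3 and Lalba, whose single values are not given here, so nothing is read about milk protein genes as a set. The median of the 14 mammary gland markers was at the floor on every adipose array. Between 8 and 11 of the 14 were at the floor on each Glucose array and 9 to 10 on each Con array, and the rest were above it.

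**Figure D2:**
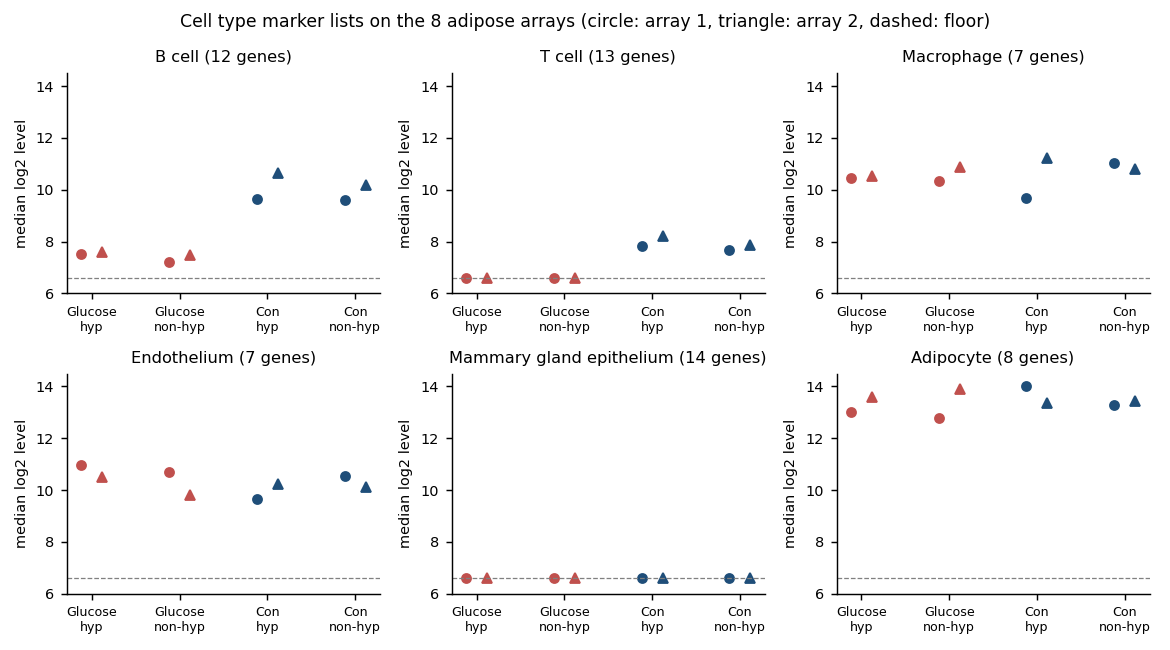
Median log2 level (vertical axis) of 6 cell type marker lists on the 8 adipose arrays, Glucose groups left of Con groups, with circles for array 1, triangles for array 2 and the floor dashed. B cell and T cell medians are lower on all Glucose arrays, while the macrophage, endothelial, mammary gland and adipocyte medians overlap.

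Companion genes from the same pathways were counted from lists drawn up with earlier results of these arrays known. Their counts and p-values in Glucose minus Con are therefore a description, as for the members. In the lymphotoxin list, 8 of 10 genes on the array were tested, 4 were higher and 4 lower on Glucose, and none passed in limma, where 7.58% of all probe sets did. Lta, the soluble partner of Ltb, differed by 0.24 ± 0.35 log2, and Ltbr, the receptor of the complex, by 0.34 ± 0.29. The lowest of the list was Relb, the noncanonical NF-kappaB subunit, with -1.16 ± 0.36 (adjusted p = 0.108), followed by Nfkb2, which encodes its partner, with -0.96 ± 0.32 (adjusted p = 0.121). Tnf was at the floor on all 8 arrays. Of the homing chemokines and receptors, 5 of 9 on the array were tested, 4 were lower and none passed; Ccl19 and the Ccl21 genes were not analysed here.

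In the list of vessel adhesion and L-selectin ligand synthesis all 12 tested genes of 18 on the array were lower on Glucose and 5 fell, where 3.54% of all tested probe sets fell. The list median was -0.85 log2 against 0.04 for all probe sets. Madcam1 and Fut7, of the same function but counted among the members, were not lower. The count of 5 was 1 without the filter on low values, 0 within the arrays coded s2 and 1 within those coded s4. St3gal4, a sialyltransferase of selectin ligands, read -85.3 to 106 on Glucose arrays and 447 to 698 on Con arrays and differed by -2.48 ± 0.21 (adjusted p = 0.000879, limma), and it passed in all 8 fits that leave out 1 array. St3gal6, another sialyltransferase, differed by -2.95 ± 0.68 (adjusted p = 0.0438), Vcam1, an adhesion molecule of activated endothelium and stroma, by -1.67 ± 0.33 (0.0272), and Itgb7, the integrin chain that binds the Madcam1 product, by -1.61 ± 0.30 (0.0204). Selplg, which carries the ligand of P-selectin on leukocytes, differed by -1.21 ± 0.28 (0.0425). With 1 array left out, between 1 and 3 genes of the list passed: St3gal6 and Vcam1 in 2 of 8 such fits, Itgb7 in 3 and Selplg in none. St3gal4 was at the floor on 3 Glucose arrays and St3gal6 on 2. The filter was on the mean over all adipose arrays, and St3gal4 passed it through its Con values.

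In the list of follicular dendritic and reticular cells, 6 genes were tested and Clu, the secreted chaperone clusterin, fell by 1.78 log2 ± 0.29 (adjusted p = 0.0119, limma). It passed in 7 of 8 fits without 1 array, the exception being the Glucose hypoxia array numbered 1, and had an adjusted p of 0.0525 without the filter. Among 5 tested lymphatic vessel genes Lyve1, a hyaluronan receptor of lymphatic endothelium and some macrophages, fell by 2.20 log2 ± 0.51 (adjusted p = 0.0425), and passed in 2 of 8 such fits and not without the filter (adjusted p = 0.185). Vegfd, a lymphatic growth factor, was the highest of that list at 2.11 ± 0.60 (adjusted p = 0.0827). None of 3 tested genes of the oxysterol pathway passed, among them Hsd3b7 with -0.88 ± 0.24 (adjusted p = 0.0722).

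**Figure D3:**
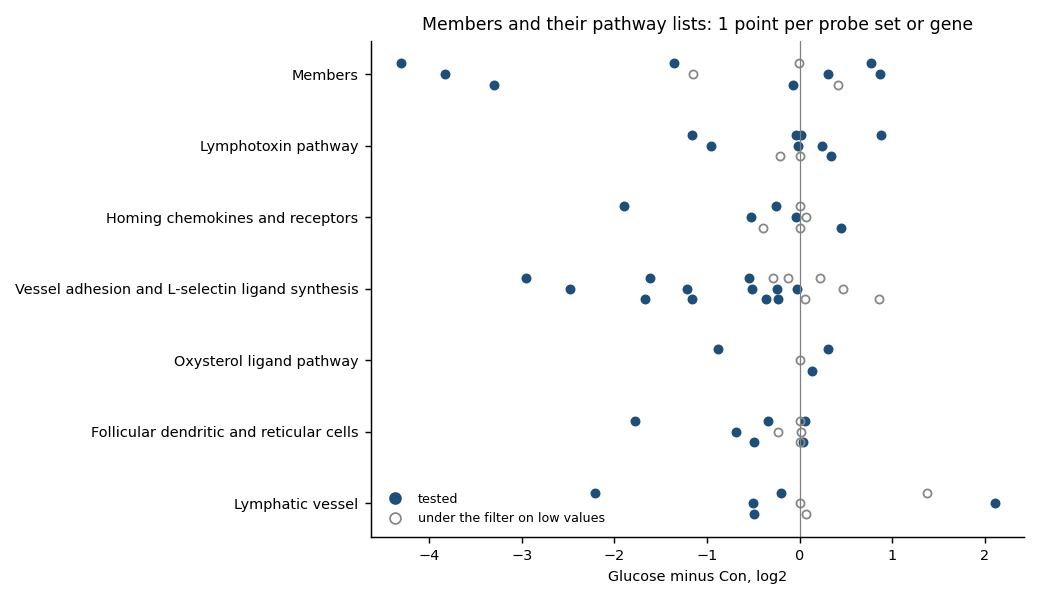
Log2 difference, Glucose minus Con (horizontal axis), of the 11 probe sets (top row) and of the genes of 6 companion lists, 1 point each. Filled points passed the filter on low values and were tested, and open points did not. All tested vessel adhesion genes lie left of 0, with a list median of -0.85, while the lymphotoxin list lies on both sides.

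Hypoxia was a comparison the choice of genes did not use, and no member passed in it. Over both sides together 0% of 7453 probe sets were called in limma (110 probe sets had an unadjusted p under 0.05). Of the 8 tested member probe sets 7 were higher with hypoxia, with a median of 0.22 log2 against 0.02 for all probe sets. Ch25h read 311 and 156 with hypoxia and 136 and 132 without on Glucose arrays, and 200 and 253 with hypoxia and 140 and 151 without on Con arrays. All 4 hypoxia arrays were above all 4 non-hypoxia arrays, but narrowly, the lowest with hypoxia at 156 and the highest without at 151. The share of all tested probe sets that separate in this way was not counted. Its difference of 0.67 ± 0.28 log2 (1.59-fold) had an unadjusted limma p of 0.0467 and an adjusted p of 0.9998, and 2.46% of all tested probe sets had a difference as high or higher. Fut7 differed by 0.58 ± 0.30 and Cxcl13 by 0.52 ± 0.34 (both with an adjusted p of 0.9998).

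Within the Con arrays all 8 tested probe sets were higher with hypoxia, with a median of 0.59 log2 against 0.06 for all probe sets, yet 0% of 7453 passed (218 at an unadjusted p under 0.05). The share of all probe sets that were higher was not counted. All 10 tested B cell markers and all 6 tested follicular dendritic and reticular cell genes were higher too, against 2 of 5 T cell markers and 1 of 8 lymphotoxin genes. Cxcl13 had the highest of the 8 member values, 0.77 ± 0.47, and Ccr7, which was not tested, had 0.97 ± 0.46. The Con hypoxia array numbered 2 carried the top value of both. Within the Glucose arrays 3 tested probe sets were higher and 3 lower, Glycam1 and Ltb had no measurable difference because all their Glucose values were at the floor, and 0% of 7453 passed (159 at an unadjusted p under 0.05). The difference between the hypoxia effects of Glucose and Con was negative for 7 of the 8, from -0.02 for Fut7 to -1.74 ± 1.27 for the second Madcam1 probe set, and 0% of 7453 passed (246 at an unadjusted p under 0.05). For Glycam1 and Ltb this difference is set by the floor on the Glucose side.

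**Figure D4:**
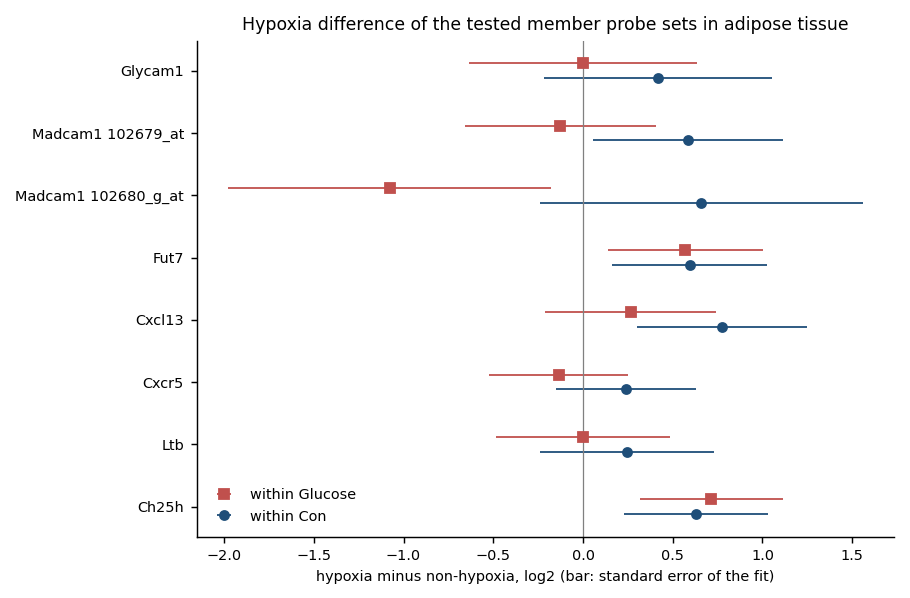
Log2 difference, hypoxia minus non-hypoxia (horizontal axis), of the 8 tested probe sets, within Glucose (squares) and within Con (circles), with the standard error of the fit as bars. All 8 Con values lie right of 0, at a median of 0.59 against 0.06 for all probe sets, and no value passed the test.

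The 12 arrays of other tissues were quantile normalized together, and levels there are normalized intensities. Their labels were checked against markers: 4 of 4 tested brain markers rose in brain, 5 of 5 heart markers in heart, and 5 of 8 skeletal muscle markers rose and 1 fell in muscle. Of 3 tested lung markers 1 rose and 1 fell in lung. The surfactant gene Sftpb rose, at 6985, 4720 and 4246 on the lung fragmentation, hypoxia and control arrays, against at most 458 elsewhere. Another surfactant gene, Sftpc, went against the label, at 818, 10.1 and 179 on the lung fragmentation, hypoxia and control arrays, against 396 to 929 on the other arrays. The airway gene Scgb1a1 did so too, since it was high on the lung fragmentation array, at 8361, and on the brain control array, at 12476, but read 352 and 288 on the lung hypoxia and control arrays. Heart markers rose in lung as well, 4 of 5 tested, with summed intensities of 11698 to 18082 on the lung arrays, against 38380 to 58810 in heart and 746 to 1775 in brain and muscle. The part of heart tissue or of mixed labels in the lung values was not tested, and the calls on Ltb, Chst2 and Madcam1 are given with 1 array left out.

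Ltb was highest in lung. It read 2920 in lung after fragmentation, 1838 after hypoxia and 2778 in the control, against 96.7 to 315 in the other tissues, so the lung arrays stood apart from all others. The lung level of 2512 ± 588 was followed by brain with 235 ± 96.2, muscle with 145 ± 36.4 and heart with 130 ± 44.9 (SD, n = 3 arrays each), and the ranges of these last 3 tissues overlapped. Against the mean of the other tissues Ltb was 3.30 ± 0.20 log2 higher in lung (9.86-fold, adjusted p = 8.68e-07 in limma, 3.21 to 3.44 with any 1 array left out), and 0.832% of all tested probe sets had a difference as high. In the same fit Ltb was lower in heart by -1.37 ± 0.20 (adjusted p = 0.000536) and in muscle by -1.24 ± 0.20 (adjusted p = 0.000726). Both passed with any 1 array left out, at -1.70 to -1.16 in heart and -1.34 to -1.12 in muscle. Its difference in brain, -0.68 ± 0.20 (adjusted p = 0.018), no longer passed without the brain fragmentation array (adjusted p = 0.0537) or the brain hypoxia array (adjusted p = 0.118). These values share the lung arrays in the mean of the other tissues.

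Markers of several cell types stood high in lung, where 28.1% of all tested probe sets rose. Of 8 tested B cell markers 6 rose, as did 4 of 5 macrophage markers, 6 of 7 endothelial markers and 4 of 5 lymphatic vessel genes. The summed intensity of the B cell list was 16681, 14144 and 18813 on the lung fragmentation, hypoxia and control arrays, against 4334 to 12315 elsewhere. Of 4 tested T cell markers 1 rose and 2 fell in lung. The part of any of these cell types in the lung level of Ltb was not tested. Of the lymphotoxin companions, Ltbr was 1.15 ± 0.27 log2 higher in lung (adjusted p = 0.00405, limma), while Lta was lower, by -1.96 ± 0.29 (adjusted p = 0.000222), and both passed with any 1 array left out. The Lta and Ltb products are known to join in the same surface ligand.

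Chst2 was highest in brain by both of its probe sets. With 102639_at it read 820 in brain after fragmentation, 748 after hypoxia and 740 in the control, against 47.3 to 334 in the other tissues. Probe set 97110_at gave 1138, 1086 and 728 on the same arrays, against 65.3 to 363 elsewhere. No other array reached the lowest brain value of either. The brain difference was 2.07 ± 0.16 log2 (4.20-fold, adjusted p = 2.32e-06) with the first and 1.94 ± 0.26 (3.85-fold, adjusted p = 0.00014) with the second, in limma. With any 1 array left out these differences ran from 2.01 to 2.14 and from 1.71 to 2.31 and passed each time, the highest of the second probe set being that without the brain control array. Chst2 was lower in muscle with both, by -1.30 ± 0.16 (adjusted p = 0.000114) and -1.11 ± 0.26 (adjusted p = 0.00552), and lower in heart with the first alone, by -0.99 ± 0.16 (adjusted p = 0.000868), with -0.30 ± 0.26 (adjusted p = 0.396) for the second. These muscle and heart calls held with any 1 array left out, at -1.36 to -1.23 and -1.39 to -0.95 in muscle and -1.17 to -0.85 in heart. Both contrasts hold the high brain arrays in the mean of the other tissues. By 97110_at heart averaged 238 ± 64.3, lung 213 ± 132 and muscle 130 ± 87.6 (SD, n = 3 each), with ranges that overlapped. By 102639_at the order was brain with 769 ± 44.5, lung with 239 ± 83.1, heart with 80.8 ± 30.8 and muscle with 52.6 ± 8.17 (SD, n = 3 each), where heart and muscle overlapped at their edges.

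The tests for tissue are broad ones. In brain 3 of the 5 tested member probe sets were called, 2 of them higher, where 49.5% of all tested were called and 23.5% were called higher. In lung 2 of 5 were called, both higher, against backgrounds of 62% and 28.1%. In heart 2 of 5 were called, both lower, against 38.7% and 19.5%, and in muscle 3 of 5, all lower, against 52.5% and 27.6%. With backgrounds this high the member counts are not a result about these genes, and the sizes for Ltb and Chst2 carry the description.

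**Figure D5:**
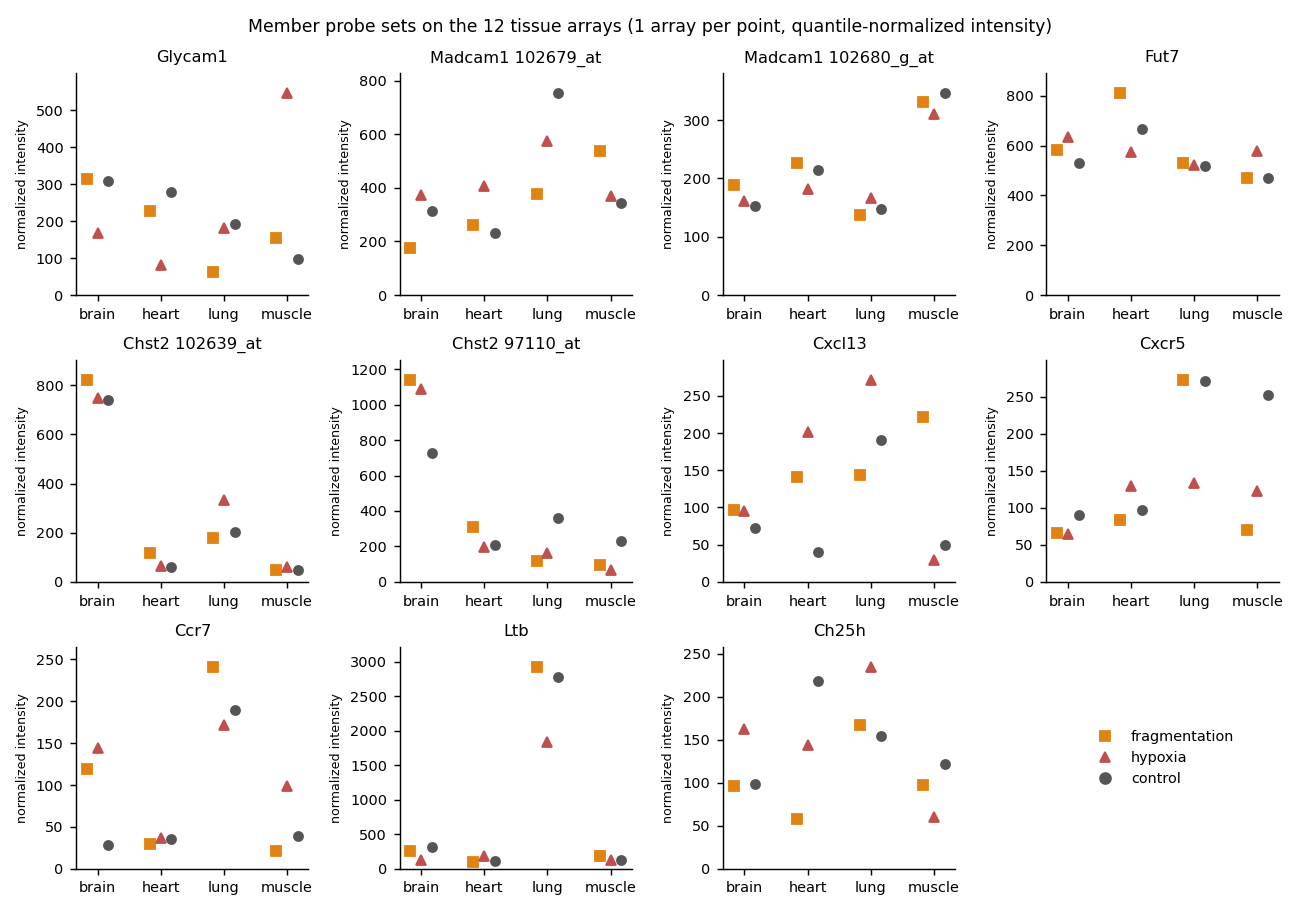
Normalized intensity (vertical axis, linear from 0, a scale of its own in each panel) of the 11 probe sets on the 12 tissue arrays, 1 array per point, with fragmentation and hypoxia left of control. Ltb stands out in lung, at 1838 to 2920, and Chst2 in brain with both probe sets.

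The other members were dim or even across the panel. Madcam1 with 102679_at read 376 in lung after fragmentation, 573 after hypoxia and 752 in the control, a lung level that overlapped with other tissues. Its difference of 0.62 ± 0.22 log2 (adjusted p = 0.0312, limma) was lost without the heart control, muscle control, brain fragmentation, muscle hypoxia or lung hypoxia array, with adjusted p between 0.0517 and 0.0702. The second Madcam1 probe set, which was under the filter, went the other way in lung, at -0.39 ± 0.12, and was highest in muscle with 329 ± 18.2 (SD, n = 3). Fut7 lay between 469 and 809 in all tissues and differed by -0.20 to 0.29 log2, with no call.

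Glycam1, Cxcl13, Cxcr5, Ccr7 and Ch25h were under the filter of the panel. Glycam1 averaged 263 ± 81.9 in brain, 196 ± 102 in heart, 145 ± 72.2 in lung and 265 ± 244 in muscle (SD, n = 3 each), with ranges that overlapped between all tissues. Cxcl13 averaged 202 ± 64.3 in lung and 88.2 ± 13.8, 128 ± 81.4 and 100 ± 105 in brain, heart and muscle. The lung range of Cxcl13 overlapped with those of heart and muscle. Ccr7 averaged 201 ± 35.8 in lung, against 97.3 ± 61 in brain, 53.5 ± 40.8 in muscle and 33.5 ± 3.75 in heart, and its 3 lung arrays, at 172 to 241, were above all others. Cxcr5 averaged 226 ± 79.3 in lung, 148 ± 93.4 in muscle, 103 ± 23.8 in heart and 73.5 ± 14.7 in brain, with overlap between lung and muscle. Ch25h averaged 186 ± 42.8 in lung, 140 ± 80.3 in heart, 119 ± 37.9 in brain and 93.4 ± 31.1 in muscle, with a lung range that overlapped with heart and brain and lay above muscle.

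No member passed for sleep fragmentation or hypoxia across the panel. Fragmentation against control gave 0% of 7453 probe sets called in limma (335 at an unadjusted p under 0.05), and hypoxia against control gave 0% as well (374 at an unadjusted p under 0.05). The member nearest to a change was Chst2 with 97110_at, at -0.35 ± 0.28 log2 for hypoxia, followed by Ltb at -0.27 ± 0.22, both with an adjusted p of 0.915. Within single tissues there is 1 array per condition and no test. There, 2 of 40 differences from control of the 5 tested member probe sets were 2-fold or more on the log2 scale with offset, or 5%, close to the 4.84% of 59624 among all tested probe sets. Both were in Chst2 with 97110_at. The 6 dimmer probe sets under the filter had 6 of 48, or 12.5%, in Glycam1, Cxcl13, Cxcr5 and Ch25h. The share among all probe sets under the filter was not counted, so nothing is read from this number. In muscle Glycam1 read 545 after hypoxia, against 96.1 in the control, the widest of these differences at 1.73 log2. Cxcl13 read 202 in heart after hypoxia, against 40.5 in the control, and 221 in muscle after fragmentation, against 49.7.

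The genes whose adipose levels ran most like those of a member were named by Pearson correlation of log2 levels over the 8 adipose arrays, which share the split into Glucose and Con, so these are descriptions. For Ltb they were Pou2af1, a B cell coactivator, with 0.994, the immunoglobulin segment Igkv9-120 with 0.994 and Cd8b1, a T cell coreceptor chain, with 0.991. Cxcl13 was likewise closest to Pou2af1 with 0.994, and to the immunoglobulin segments Ighv14-2 and Igkv6-14 with 0.992 each. For Glycam1 they were Clu with 0.993, Rassf5, a signalling adaptor of lymphocyte adhesion, with 0.990, and Ighv14-2 with 0.988. Ccr7 was closest to immunoglobulin genes, with Ighg3 at 0.978. Cxcr5, however, was closest to H2-Ke6 with 0.984, Ces1d with 0.980 and Tnnt1, one of the skeletal muscle markers, with 0.972. The closest gene to Madcam1 was Cdk8 with 0.967, to Fut7 Tfap2a with 0.975 and to Ch25h Polr1b with 0.847. Over the 12 tissue arrays Ltb was closest to Ighv14-2 with 0.984, to the chitinase-like gene Chil1 with 0.982 and to Hdc, the histamine-forming enzyme, with 0.981. Chst2 with 97110_at was closest to Eml5 with 0.949, to the proton pump subunit Atp6v1a with 0.941 and to Nsf, a vesicle fusion factor, with 0.931.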

How the data were processed

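The deposited values are linear intensities, 1 for each of the 12488 probe sets of an array. The sources used here do not give how the authors summarised and scaled them. From these deposited intensities the log2 values were computed here. The 66 control probe sets were left out. Adipose values were floored at 97.7, the percentile 20 of all positive values, and kept their deposited scaling; to the values of the other tissues that number was added, and log2 values were quantile normalized. Each fit kept the 7453 probe sets above the 40th percentile of the mean (panel: of the highest tissue mean).

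Tests used limma 3.58.1 under R 4.3.3 (lmFit, eBayes, two-sided), with Benjamini-Hochberg adjusted p at 0.05 over the whole fit. Adipose arrays were fitted by 4 group means and the panel by tissue and condition. The code was tested on simulated data. The number of arrays limits the precision. The letters a and b in the adipose titles became array numbers 1 and 2. Deviations of same-numbered arrays from their group means correlated at -0.14 to 0.41. The highest was between the 2 Glucose groups, where same-numbered arrays also share the code s2 or s4. Number and code cannot be told apart there. No label says that the numbers pair arrays, and they were not taken to do so.

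The members, lists and motifs were chosen with earlier results of these data known. All member probe sets are named, as are up to 5 genes of a companion list with the largest Glucose minus Con differences, plus others past the threshold; a few were added for their role after their values were seen (Lta, Ltbr, Tnf). A companion gene is read from its probe set with the highest mean. Symbols come from the platform annotation: 10833 probe sets have 1 symbol, 396 several and 1193 none. The alternatives were another floor or offset, no filter, another normalization, the array number or the title code s2 or s4 as a block, each code alone, values at or below 0 as missing, and each array left out.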

Additional observations from a re-analysis of the deposited data

How the results depend on the processing

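Of the member probe sets, 4 were past the threshold in Glucose minus Con, as described above without a test, and the count was 3 with any 1 array left out. It was 0 within the s2 arrays and 1 where values at or below 0 were missing, a setting that tested 4 member probe sets. Over all probe sets 565 became 0 within s2, 142 within s4 and 240 to 459 without 1 array. The replicate block left 4 member probe sets and 466 of all, and changed no call of a member; among the companion genes named it lost Selplg (adjusted p = 0.0673 in limma), as did the s code as a block (0.0613). The s code has no stated meaning; within s2 the log2 difference of Ltb was -4.84 and within s4 -3.78. Sizes of genes at the floor follow the floor: with the percentile 10 or 40 as floor Ltb differed by -5.33 or -2.74, Glycam1 by -4.97 or -2.26, and with the percentile 40 Cxcl13 by -1.88 (-2.77 with values at or below 0 missing) and Cxcr5 by -0.11. Without the filter 4, 2, 4 and 3 of all probe sets passed in the hypoxia comparisons (average, within Con, within Glucose, difference), against 0, and no member did. In lung 5 member probe sets passed without the filter, against 2, and 1 to 3 without 1 array; the added ones were Ccr7 (0.95, adjusted p = 0.0033 in limma), Cxcr5 (0.66, 0.0233) and, lower in lung, the second Madcam1 probe set. The cause of these shifts was not tested, beyond what fewer arrays or more probe sets tested bring by construction. No member difference that had passed changed sign under any alternative run.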
